A study of Rattus norvegicus with 10 samples.

Results

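The muscle miRNAs, or myomiRs, are a small group of mature miRNAs that mark skeletal and heart muscle. Of the 765 rat miRNAs in a small RNA sequencing table of the hippocampus, 7 were taken by name: miR-1-3p, miR-133a-3p, miR-133b-3p, miR-206-3p, miR-208a-3p, miR-208b-3p and miR-499-5p. Whole hippocampus of Wistar rats aged 10 weeks was sampled in 5 libraries from rats given a 2-VO operation and 5 from sham-operated rats. In the 2-VO operation both common carotid arteries are closed, which lowers blood flow to the brain over a long time. No genetic change or other agent is named for either group, and the time from operation to sampling, and whether libraries came from separate or pooled animals, were not given in the sources used here. The p-values therefore speak only of the spread from library to library, part of which may be technical.

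In muscle, miR-1 and miR-133 are made from shared primary transcripts and act on differentiation and growth of the muscle cell, and miR-206 and miR-133b come from another such transcript that is active in skeletal muscle. miR-208a, miR-208b and miR-499 lie in introns of myosin heavy chain genes and are known in heart and slow muscle for control of fibre type. A miRNA pairs with its targets mainly through its seed, bases 2 to 8, so members of the same seed can bind the same sites.

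The mature sequences, from RefSeq with the rat build GRCr8, show how the members group and how little sets some of them apart. The seed is in capitals, and all 7 members were found there by name. The first lines share a seed and hold miR-1-3p and miR-206-3p with the row miR-1b, which is not a member and was added after its values were seen.
miR-1-3p: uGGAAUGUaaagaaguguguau
miR-1b: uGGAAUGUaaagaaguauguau
miR-206-3p: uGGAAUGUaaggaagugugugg
miR-133a-3p: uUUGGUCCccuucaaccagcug
miR-133b-3p: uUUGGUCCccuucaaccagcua
miR-208a-3p: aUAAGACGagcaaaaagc
miR-208b-3p: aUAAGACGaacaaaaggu
miR-499-5p: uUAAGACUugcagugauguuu
Counted from base 1 at the 5′ end, the change from miR-1b to miR-1-3p is A17G alone. As background, the sequence listed as miR-1b in the rat is the one called miR-1 in human and mouse. miR-206-3p differs from miR-1-3p by 3 bases (A11G, A21G and U22G), all outside the seed. miR-133a-3p and miR-133b-3p differ only by G22A, at their last base. The seeds of miR-208a-3p and miR-208b-3p are the same, and that of miR-499-5p differs from them in its last base (U8G, from miR-499-5p to miR-208a-3p).

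In the RefSeq annotation of GRCr8 the hairpin of miR-499 lies within Myh7b, that of miR-208a within Myh6 and that of miR-208b within Myh7, each on the strand of the myosin gene. The hairpins of miR-1 and miR-133a lie within Mib1, which encodes a ubiquitin ligase, on the strand opposite to it. Those of miR-206 and miR-133b lie within the same long noncoding RNA gene, LOC120094648, on its strand. No coordinates are given, because the submitters' processing notes name another build, rn6.

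The hippocampal libraries fell into 4 members seen in every library, 1 near the limit of the table and 2 listed at 0 throughout. Values are the deposited RPM. Read numbers were worked back from them, with the smallest value of each library taken as 10 reads, and so was the total per library. That total, whose make-up was not given in the sources used here, came to 13095384 to 13839174 reads in 2-VO and 13032805 to 13850400 reads in sham libraries. With the smallest listed value taken as 10 reads, 0 means fewer than 10 reads, or less than 0.722 to 0.767 RPM. Neuronal markers were read as a check for brain tissue, and they cannot tell the hippocampus from another brain region. The 7 neuronal marker miRNAs summed to 177258 to 229760 RPM in 2-VO and 187555 to 226879 RPM in sham libraries. miR-9a-5p, a miRNA of neurons and neural progenitors, ranked 1. Of the libraries, 2-VO replicate 3 had the lowest share of its reads on listed miRNAs, 60.3%, against 64.2% to 78.0% in the others. In whole tissue, fewer cells of a type and less of a miRNA per cell cannot be told apart.

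miR-499-5p was the most abundant member. Its level was 147, 189, 131, 132 and 192 RPM in 2-VO replicates 3, 5, 6, 7 and 8, against 157, 168, 237, 115 and 162 RPM in sham replicates 1 to 5. The groups overlapped, and sham libraries held both the highest and the lowest value. Its mean of 163 RPM ranked 166 among the 765 miRNAs, and 78.3% of them had a lower mean. For comparison, miR-124-3p, the classical neuronal miRNA, averaged 2218 ± 524 RPM in 2-VO and 2292 ± 440 RPM in sham libraries (SD, n = 5 each) and ranked 45. miR-499-5p made up 84.3% ± 3.50 of the summed RPM of the 7 members in 2-VO and 84.7% ± 3.82 in sham libraries (SD, n = 5 each). That sum does not hold the row miR-1b, which averaged 202 RPM in 2-VO and 188 RPM in sham libraries. miR-499-5p was counted from 1557 to 3113 reads per library. Its coefficient of variation over the 10 libraries was 22.0%, where counting error alone gives 2.14%.

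The reads of the miR-499 hairpin in the table came from its 5′ arm, in capitals here because it carries the result.
Mir499a: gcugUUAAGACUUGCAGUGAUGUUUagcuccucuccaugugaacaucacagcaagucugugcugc
The opposite arm, miR-499-3p, was listed at 0 in each library. Set against the limit of 10 reads per library, miR-499-5p was at least 156-fold higher than miR-499-3p in the library with the lowest value. The other arms of the remaining 6 members (miR-1-5p, miR-133a-5p, miR-133b-5p, miR-206-5p, miR-208a-5p and miR-208b-5p) were also listed at 0 throughout. The bound was far weaker there, at least 11.5-fold for miR-1-3p, 9.40-fold for miR-206-3p and 7.30-fold for miR-133a-3p, because these members had fewer reads.

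**Figure D1:**
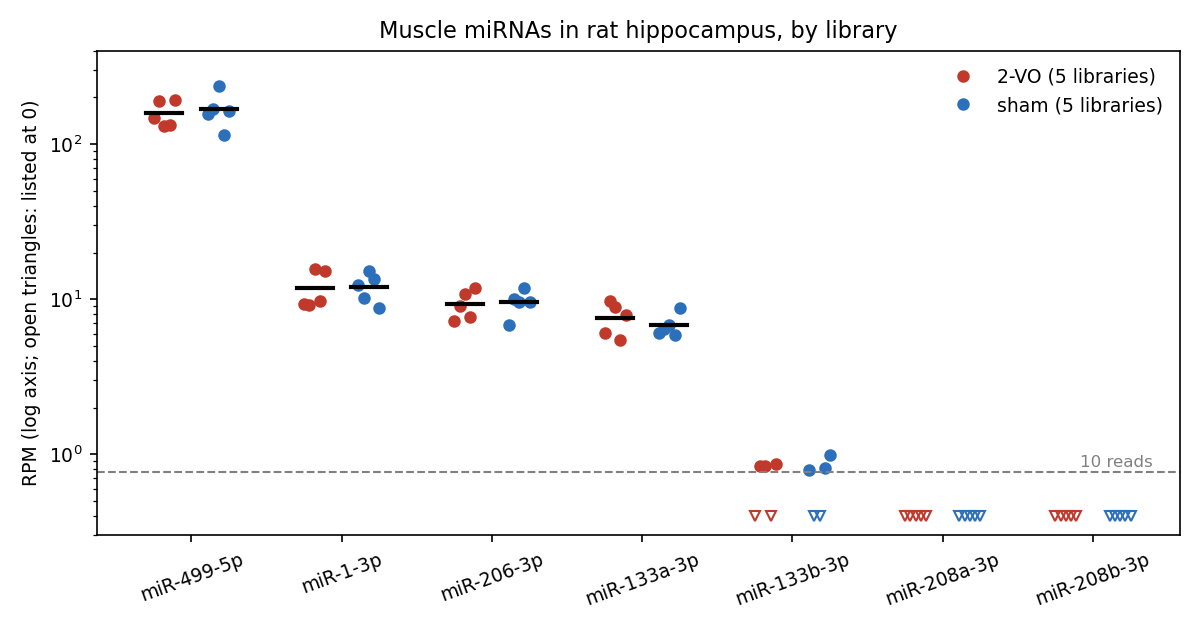
RPM of the 7 muscle miRNAs on a log axis, with 1 point per library, 2-VO to the left of sham, bars at the group means and open triangles for values listed at 0. miR-499-5p stands between 115 and 237 RPM, miR-1-3p, miR-206-3p and miR-133a-3p between 5.48 and 15.6 RPM, miR-133b-3p at the limit of 10 reads (dashed), and miR-208a-3p and miR-208b-3p at 0.

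Next in the order was miR-1-3p, which in muscle restrains growth and favours differentiation. It stood at 9.26, 9.24, 15.6, 9.77 and 15.2 RPM in 2-VO replicates 3, 5, 6, 7 and 8, against 12.4, 10.2, 15.3, 13.5 and 8.82 RPM in sham replicates 1 to 5. Within the 2-VO group replicates 6 and 8 stood above the other 3 libraries, and the sham values covered nearly the same range. These levels rest on 115 to 211 reads per library.

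miR-206-3p, known from skeletal muscle and its nerve contacts, stood at 7.22, 9.01, 10.9, 7.66 and 11.8 RPM in the 2-VO libraries, against 6.79, 10.0, 9.60, 11.8 and 9.67 RPM in the sham libraries, in the same order of replicates. Its lowest value was in sham replicate 1, and the groups overlapped. miR-133a-3p, which acts on proliferation and growth of muscle cells, stood at 6.05, 9.70, 8.89, 5.48 and 7.95 RPM in 2-VO libraries, against 6.06, 6.45, 6.86, 5.92 and 8.82 RPM in sham libraries. 2-VO replicates 5 and 6 lay above every sham library, 2-VO replicate 7 held the lowest value, and the groups overlapped. The coefficients of variation over the 10 libraries were 23.4% for miR-1-3p, 19.0% for miR-206-3p and 20.7% for miR-133a-3p, where counting error alone gives 7.90%, 8.89% and 10.2%.

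miR-133b-3p, the partner of miR-206 in its transcript, was at the edge of detection. It had 11, 11 and 12 reads in 2-VO replicates 5, 6 and 8 and 11, 11 and 13 reads in sham replicates 1, 4 and 5, and was listed at 0 in the other 4 libraries. Those reads give 0.836 to 0.867 RPM in the 2-VO and 0.794 to 0.998 RPM in the sham libraries that had a value. Both heart members hosted by Myh6 and Myh7, miR-208a-3p and miR-208b-3p, were listed at 0 in all 10 libraries. At this depth a level under 0.722 RPM was not detectable in any library.

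The order of the means was thus miR-499-5p (163 RPM), miR-1-3p (11.9 RPM), miR-206-3p (9.44 RPM), miR-133a-3p (7.22 RPM) and miR-133b-3p (0.515 RPM, with 0 entered where it was listed at 0), with both miR-208 members at 0. Each neighbour was compared with the next within libraries on log2(RPM + 1), for 4 pairs. An exact two-sided paired permutation test was used, whose smallest possible p is 0.0020. The order came from the means of these same libraries, so each direction was known before its test. The p-values therefore describe how steady each gap was over the libraries and are not separate support for the order. miR-499-5p exceeded miR-1-3p in 10 of 10 libraries (mean log2 ratio 3.67 ± 0.41, SD, n = 10; exact permutation p = 0.0020, adjusted p = 0.0039). The gaps in the middle of the order were small. miR-1-3p lay above miR-206-3p in 9 of 10 libraries (0.30 ± 0.28, SD, n = 10; exact permutation adjusted p = 0.0098), and miR-206-3p above miR-133a-3p in 9 of 10 (0.35 ± 0.28, SD, n = 10; exact permutation adjusted p = 0.0052). miR-133a-3p lay above miR-133b-3p in 10 of 10 (n = 10; exact permutation adjusted p = 0.0039). The size of that last gap was set by the pseudocount, since miR-133b-3p was under 10 reads in 4 libraries: the mean log2 ratio was 2.48 with 1 RPM added, 3.06 with 0.5 and 1.14 with 5. Mature miRNAs are of nearly equal length, but ligation and amplification favour some sequences over others, so levels of different miRNAs are comparable only roughly.

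**Figure D2:**
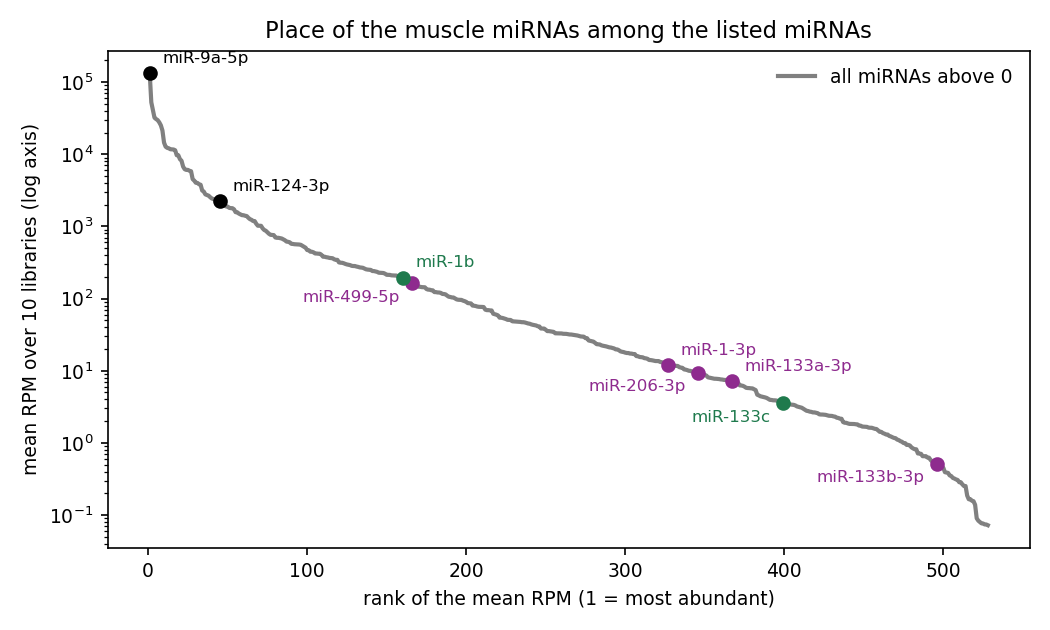
Mean RPM over the 10 libraries on a log axis against rank, for the miRNAs above 0 (line), with the members in purple, the rows miR-1b and miR-133c in green and the neuronal miR-9a-5p and miR-124-3p in black. miR-499-5p and miR-1b lie at ranks 166 and 160, miR-1-3p, miR-206-3p and miR-133a-3p at ranks 327, 346 and 367, and miR-133b-3p at rank 496.

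The place of miR-1 in this order depended on which row is read as miR-1. The row miR-1b, chosen after its values were seen, stood at 168, 189, 244, 168 and 243 RPM in 2-VO replicates 3, 5, 6, 7 and 8, against 157, 191, 198, 181 and 215 RPM in sham replicates 1 to 5. It was 12.6 to 24.3 times as high as miR-1-3p in each library. miR-1-3p came to 5.77% ± 0.600 of miR-1b in 2-VO and 6.52% ± 1.70 in sham libraries (SD, n = 5 each). Sham libraries held both ends of the range, 4.11% in replicate 5 and 7.91% in replicate 1. With miR-1b, the rows of the miR-1 and miR-206 seed summed to 224 ± 43.8 RPM in 2-VO and 209.8 ± 21.6 RPM in sham libraries, against 21.1 ± 5.17 and 21.6 ± 3.27 RPM without it. miR-1b was higher than miR-499-5p in 7 of 10 libraries and lower in 1 (mean log2 ratio 0.27, exact two-sided paired permutation test, n = 10, p = 0.031, adjusted over 4 added pairs p = 0.031), and their read numbers were equal in 2-VO replicate 5 (2471 reads each) and sham replicate 1 (2174 reads each). How the authors treated reads that match both miR-1-3p and miR-1b was not given in the sources used here.

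A second kind of related row lies on the opposite strand, and was also chosen after its values were seen. In RefSeq, miR-133c and miR-3571 are annotated antisense to miR-133a-3p and miR-1-3p.
miR-133c: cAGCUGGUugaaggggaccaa
miR-3571: uACACACUucuuuacauuccaua
The reverse complement of miR-133c is bases 2 to 22 of miR-133a-3p, and 21 bases of miR-3571 are the reverse complement of bases 1 to 21 of miR-1-3p. miR-133c stood at 3.67 ± 1.20 RPM in 2-VO and 3.50 ± 0.541 RPM in sham libraries, which was 47.4% ± 7.0 and 51.6% ± 6.49 of miR-133a-3p (SD, n = 5 each). miR-3571 stood at 2.55 ± 0.949 and 2.88 ± 0.925 RPM, or 21.5% ± 5.65 and 23.7% ± 5.07 of miR-1-3p. Over the 10 libraries Pearson's r of each antisense row with its own sense row passed, and Spearman's rho passed for miR-133c alone. For miR-133c and miR-133a-3p Pearson's r on log2(RPM + 1) was 0.86 (permutation p = 0.0026, adjusted over 5 relations p = 0.013) and Spearman's rho 0.89 (permutation p = 0.0011, adjusted p = 0.0054), and r was 0.82 without the 2 libraries farthest from the median. For miR-3571 and miR-1-3p r was 0.76 (permutation p = 0.017, adjusted p = 0.044) and rho 0.60 (permutation p = 0.073, adjusted p = 0.18), so Pearson's r passed and Spearman's rho did not, and r was 0.79 without the 2 farthest libraries. Crossed over, r was 0.24 for miR-133c with miR-1-3p (rho 0.24) and -0.021 for miR-3571 with miR-133a-3p (rho -0.042), with permutation p of 0.49 and 0.95. Whether the counting used the strand of the reads was not given in the sources used here, and without it reads of a sense and an antisense row cannot be told apart. Elsewhere, rows under different names had nearly equal means. miR-3588 averaged 9127.05 RPM in 2-VO and 10256.2 RPM in sham libraries, and miR-125b-5p 9127.32 and 10256.6 RPM. miR-3596a averaged 5633.37 and 6524.96 RPM, and let-7a-5p 5633.62 and 6525.23 RPM. Whether miR-133c and miR-3571 hold reads of their sense rows was not tested. Shared reads would by themselves tie such rows, so these correlations do not speak of separate RNAs.

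**Figure D3:**
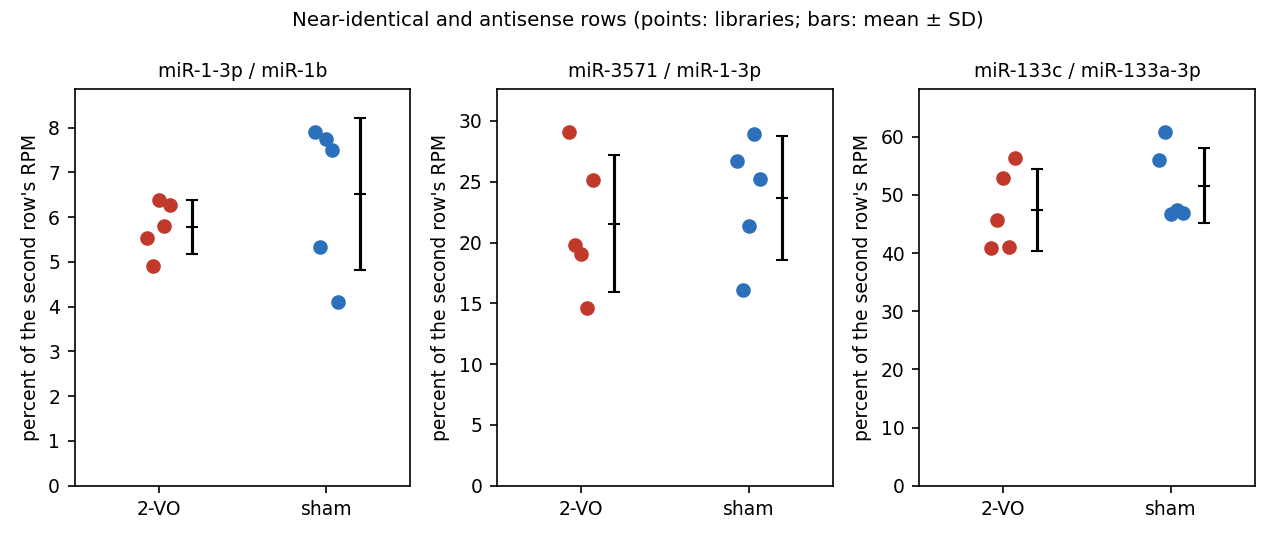
Within-library ratios, in percent, of miR-1-3p to miR-1b (left), miR-3571 to miR-1-3p (middle) and miR-133c to miR-133a-3p (right), with 1 point per library, 2-VO to the left of sham, and mean ± SD beside them. The groups overlap in each panel, at 4.11% to 7.91%, 14.6% to 29.1% and 41.0% to 60.9%.

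The comparison of 2-VO with sham asked whether reduced blood supply changed the members. None of the 4 tested members passed (limma's moderated test on log2(RPM + 1), smallest adjusted p = 0.93; members with a mean under 1 RPM were not tested). The background of the table was 0% for this call, since 0 of 474 miRNAs passed, with limma and with limma's voom. At an unadjusted p under 0.05 the share was 5.06% of all miRNAs (24 of 474) and 0 of the 4 members. The groups did not overlap for 0.633% of all miRNAs and for 0 of the 4 members.

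miR-499-5p averaged 158 ± 30.3 RPM in 2-VO and 168 ± 44.0 RPM in sham libraries (SD, n = 5 each), and its log2 fold change was -0.07 with an SE of 0.17 (limma, adjusted p = 0.96), or 0.065 without sham replicate 3, its highest library. miR-1-3p averaged 11.8 ± 3.29 and 12.1 ± 2.60 RPM in the same order of groups, with a log2 fold change of -0.04 and an SE of 0.18 (adjusted p = 0.98). miR-206-3p averaged 9.31 ± 1.98 and 9.58 ± 1.81 RPM, with a log2 fold change of -0.04 and an SE of 0.16 (adjusted p = 0.96). miR-133a-3p averaged 7.62 ± 1.81 and 6.82 ± 1.18 RPM, with a log2 fold change of 0.12 and an SE of 0.16 (adjusted p = 0.93). These differences were smaller than the spread within the groups. The 95% intervals of the log2 fold change were -0.44 to 0.30, -0.43 to 0.35, -0.39 to 0.31 and -0.22 to 0.47 in the same order. In this fit they lay within 1.5-fold in either direction for all 4 members, as for 406 of the 474 miRNAs. The 1 RPM added before the log narrows the fold of low miRNAs, so these are not bounds on RPM itself. Without 2-VO replicate 3 the 4 log2 fold changes were -0.048, 0.032, 0.036 and 0.19, and 0 of all miRNAs passed.

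The related rows did not pass either. miR-1b averaged 202 ± 38.7 RPM in 2-VO and 188 ± 21.4 RPM in sham libraries with a log2 fold change of 0.09 and an SE of 0.13 (limma, adjusted p = 0.96). With miR-1-3p, miR-1b and miR-3571 summed, the log2 fold change was 0.078, and with miR-133a-3p, miR-133b-3p and miR-133c summed it was 0.079. Where rows share reads, these sums count them more than once.

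**Figure D4:**
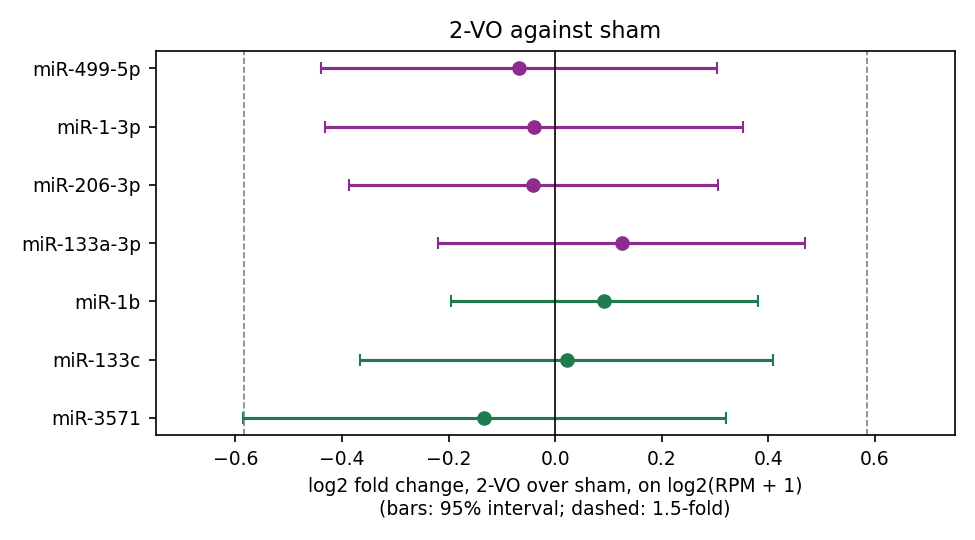
Log2 fold change of 2-VO over sham on the log2(RPM + 1) scale with 95% intervals from limma, for the 4 tested members (purple) and the 3 related rows (green). The intervals hold 0 for each, and those of the members lie within the dashed lines at 1.5-fold.

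miR-1 and miR-133a share a primary transcript, so their ratio was compared within libraries. The log2 ratio of miR-133a-3p to miR-1-3p was -0.56 ± 0.37 in 2-VO and -0.73 ± 0.45 in sham libraries (SD, n = 5 each; exact two-sided permutation test, p = 0.52, smallest possible p = 0.0079). miR-133a-3p reached 105% of miR-1-3p in 2-VO replicate 5 and 100% in sham replicate 5, against 52.1% to 65.4% in the other 2-VO and 43.7% to 63.5% in the other sham libraries. The difference of 2-VO minus sham was 0.16 over all libraries, 0.0072 without 2-VO replicate 5 and 0.35 without sham replicate 5. Against the sum of miR-1-3p and miR-1b, miR-133a-3p came to 3.58% ± 0.758 in 2-VO and 3.40% ± 0.361 in sham libraries.

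Across the 10 libraries the members did not pass a test of moving together. Over the 6 pairs of the 4 tested members Pearson's r ran from 0.018 to 0.52 (smallest permutation p = 0.12, adjusted over 14 relations p = 0.35), and the transcript partners miR-1-3p and miR-133a-3p had r of 0.027 (rho 0.018). Markers of other cells were present beside them: the 4 smooth muscle miRNAs of the miR-143 and miR-145 hairpins summed to 10232 to 14387 RPM in 2-VO and 11641 to 13874 RPM in sham libraries, and the 4 red blood cell miRNAs to 84.9 to 219.7 and 131 to 157 RPM, with none of either list at 0. Their most abundant rows were miR-143-3p (12201 ± 2065 RPM in 2-VO and 12374 ± 847 RPM in sham libraries) and miR-145-5p (204 ± 53.7 and 215 ± 32.7 RPM) for smooth muscle. For red blood cells they were miR-486 (119 ± 34.2 RPM in 2-VO and 121 ± 9.41 RPM in sham libraries) and miR-451-5p (22.3 ± 11.4 and 17.3 ± 3.54 RPM; SD, n = 5 each). Their 8 relations with the members had r from 0.19 to 0.72, and 0 passed after adjustment. The highest were miR-1-3p with the smooth muscle sum (r = 0.72, permutation p = 0.022, adjusted p = 0.15; rho = 0.70, permutation p = 0.030, adjusted p = 0.18) and miR-206-3p with the red blood cell sum (r = 0.71, permutation p = 0.0072, adjusted p = 0.10; rho = 0.79, permutation p = 0.0087, adjusted p = 0.12). Without the 2 libraries farthest from the median r was 0.59 and 0.60, and scaled to the listed miRNAs it was 0.64 and 0.57. miR-486, the most abundant row of the red blood cell sum, is also on the list of other muscle miRNAs read below. That sum is therefore not particular to blood. Of other cells that the tissue can hold, the 3 choroid plexus miRNAs summed to 387 to 562 RPM in 2-VO and 548 to 949 RPM in sham libraries, and the 2 endothelial miRNAs to 5769 to 8326 and 6555 to 7731 RPM. miR-204-5p, a choroid plexus miRNA, averaged 432 ± 75.7 RPM in 2-VO and 646 ± 145 RPM in sham libraries (SD, n = 5 each; limma unadjusted p = 0.0019, adjusted p = 0.44), and miR-448-3p 17.8 ± 6.0 and 25.0 ± 15.8 RPM. All 3 choroid plexus miRNAs had lower means in 2-VO (median log2 fold change -0.56), and 2 of them had an unadjusted p under 0.05 (limma), where 0 passed after adjustment. Of all 474 tested miRNAs, 295 were lower and 24 had an unadjusted p under 0.05 (limma). Other arms of these hairpins changed less: the log2 fold change was -0.081 for miR-204-3p and 0.13 for miR-448-5p, which averaged 1.46 RPM in 2-VO and 1.38 RPM in sham libraries. The endothelial rows were miR-126a-3p (6607 ± 961 RPM in 2-VO and 6889 ± 412 RPM in sham libraries) and miR-126a-5p (301 ± 53.4 and 287 ± 32.8 RPM). The part of these cells in the members' levels was not tested.

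The miRNAs of at least 10 RPM whose values were most like a member's differed between members. Likeness was Pearson's r of log2(RPM + 1) over the 10 libraries, given as a description, and all rows share the libraries and their totals. miR-133a-3p was most like miR-153-3p (r = 0.95), miR-425-5p (0.92) and miR-126a-5p (0.89). miR-206-3p was most like miR-598-3p (0.89), let-7e-3p (0.85) and miR-135a-3p (0.82), and miR-1-3p most like miR-1843a-3p (0.85), miR-344b-1-3p (0.80) and miR-582-3p (0.80). miR-499-5p was most like miR-28-5p (0.81), miR-22-3p (0.77) and miR-3556b (0.77). Each member was compared with 338 or 339 miRNAs, so the highest r were picked from many. The 10th highest r of a member was still 0.71 to 0.81. The median absolute r over all miRNAs compared was 0.32 to 0.45.

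Muscle also carries miRNAs that are not specific to it, and a list of 26 such miRNAs was read beside the members. Of these, 24 were in the table and 23 were tested. Of the 23, 0 passed and 0 had an unadjusted p under 0.05 (limma). Higher means in 2-VO were found for 10 and lower for 13 (median log2 fold change -0.0094), where 179 of all 474 were higher and 295 lower (median -0.051). With RPM scaled to the listed miRNAs the split of all miRNAs was 242 higher and 234 lower. The most abundant of the list were miR-128-3p, which is also a neuronal miRNA, at 50299 ± 6612 RPM in 2-VO and 54750 ± 3993 RPM in sham libraries, and miR-26a-5p at 27444 ± 2543 and 28020 ± 659 RPM (SD, n = 5 each). Of 10 miRNAs known from liver, gut, pancreas or skin and other epithelia, 8 were above 0 in every library, with means from 1.67 to 419 RPM, and 2 were at 0 throughout (miR-216a-5p and miR-141-3p, named after their values were seen). The most abundant were miR-192-5p, at 386 ± 88.9 RPM in 2-VO and 452 ± 58.4 RPM in sham libraries, and miR-194-5p, at 83.0 ± 22.9 and 101 ± 13.5 RPM (SD, n = 5 each).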

How the data were processed

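Libraries were made from Trizol-isolated total RNA with a NEBNext kit for small RNA (adapter ligation, PCR, gel size selection), per the labels' protocols. No molecular identifiers are named, so PCR copies may be counted as reads. The authors deposited RPM values for 765 miRNAs, 1 column per library. As tools and build, bcl2fastq, BWA and rn6 stand in the submitters' processing notes. The counting rules and annotation were not given in the sources used here. Read numbers and totals were worked back from the RPM, with the smallest value of each library taken as 10 reads. On that scale all 4962 values above 0 were whole reads, within 0.01 reads, of 1 total per library. That none was under 10 reads follows from this setting.

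From these values log2(RPM + 1) was tested for 474 miRNAs that averaged 1 RPM or more (limma 3.58.1, R 4.3.3; mean-variance trend, two-sided, Benjamini-Hochberg, threshold 0.05, no covariate), which understates the change of low miRNAs. Exact permutation tests covered the ratio (252 assignments) and neighbours (1024 sign flips), and 100000 permutations the correlations (Python 3.11.15, SciPy 1.17.1). Other settings changed the pseudocount, filter, scaling, test and block, or left out libraries. The fit was tested on simulated data. The members, lists and named miRNAs (all members, their other arms, the 3 most alike, the 2 most abundant of each list, and miR-9a-5p and miR-124-3p as neuronal levels) were chosen with earlier results of these data known, and miR-1b, miR-133c and miR-3571 after their values were seen. RefSeq sequences matched 690 of 765 names.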

Additional observations from a re-analysis of the deposited data

Results flagged for a closer look

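Of 24 groups of 5 values, 2 held a library far from the others (a gap to the nearest above 0.71 of the range), where chance gives about 1.2, and both are the same library and the same member. In 2-VO replicate 5 miR-133a-3p came to 105% of miR-1-3p, against 52.1% to 65.4% in the other 2-VO libraries. There it came to 4.90% of miR-1-3p and miR-1b together, against 3.07% to 3.42%.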

How the results depend on the processing

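The 4 members passed under none of the settings run (lowest limma adjusted p = 0.70). The log2 fold change of miR-1-3p and miR-206-3p turned sign when scaled to the listed miRNAs (0.012 and 0.010), with TMM factors (0.014 and 0.012) and with median-of-ratios factors (0.010 and 0.0078), and that of miR-1-3p with its related rows summed (0.078). These scalings moved the median of all miRNAs from -0.051 to between -0.0020 and 0.0026. The number of miRNAs at an unadjusted p under 0.05, 24 in the reported fit, was 37 with median-of-ratios factors and 13 to 42 without 1 library. The cause was not tested. Leaving out 1 library gave -0.14 to 0.047 for miR-1-3p (positive without 2-VO replicate 3, 5 or 7 or sham replicate 3 or 4), -0.15 to 0.036 for miR-206-3p (positive without 2-VO replicate 3 or 7 or sham replicate 4), -0.19 to 0.065 for miR-499-5p (positive without sham replicate 3) and 0.040 to 0.22 for miR-133a-3p.

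Replicate numbers 3 and 5 occur in both groups, and the deviations of same-numbered libraries correlated at -0.058 and -0.18. The sources used here do not say that equal numbers pair libraries, and 2 shared numbers are too few to settle whether they do. With the number as a replicate block, 8 of 474 miRNAs passed, where 0 passed without it. In that fit the group difference rests on replicates 3 and 5 of each group alone. The other libraries are each fitted by a term of their own and add nothing to it. The log2 fold changes were then -0.30 for miR-1-3p, -0.23 for miR-206-3p, -0.23 for miR-499-5p and -0.017 for miR-133a-3p, each lower than without the block. The difference in the partner ratio was 0.29 (0.16 without the block), and the median of all miRNAs was -0.17. These values and the 8 calls therefore speak of replicates 3 and 5, not of all libraries.

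The order of the members kept its direction and its calls, though not the size of the last gap, under both other pseudocounts and without any 1 library. Of the 14 correlations, 0 passed in each setting, and the signs that turned belong to miR-1-3p with miR-133a-3p (-0.36 scaled to the listed miRNAs, -0.20 without the 2 farthest libraries), miR-1-3p with miR-499-5p (-0.15 and -0.047), miR-206-3p with miR-499-5p (-0.36 and -0.10) and miR-499-5p with the red blood cell sum (-0.11 scaled). With RPM taken over the summed values of the listed miRNAs alone, the means were 231 for miR-499-5p, 16.8 for miR-1-3p, 13.3 for miR-206-3p and 10.2 for miR-133a-3p. The planned quasi-likelihood count model was not run. limma's voom was run on the whole reads. Depth limits miR-133b-3p and both miR-208 members, at or under 13 reads.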
